A study of Mus musculus with 20 samples.

Results

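The cytosolic chaperonin CCT, also called TRiC, is built from 8 related subunits, and the transcripts of all 8 were followed here in single mouse embryos at the 8-cell stage. The genes were taken by symbol: Tcp1, Cct2, Cct3, Cct4, Cct5, Cct6a, Cct7 and Cct8, which is 8 of the 34937 genes in the count files, and all 8 passed the low-count filter that left 11754 genes. No cut on a measured value was used to choose them, but earlier results of these data were known at that point. Ehmt2Cntr embryos (9 with counts) came from Ehmt2F/+ Zp3-Cre females and Ehmt2Mat embryos (10) from Ehmt2F/- Zp3-Cre females, where F is a conditional allele of Ehmt2, the gene of the H3K9 methyltransferase G9a, and Zp3-Cre deletes it in the growing oocyte. The fathers were Ehmt2+/-, so among the Ehmt2Cntr embryos 6 were zygotically +/+ and 3 were +/-, and among the Ehmt2Mat embryos 5 were -/- (Ehmt2M/Z) and 5 were +/- (Ehmt2M/+). All mothers carried the Zp3-Cre transgene and the background was mixed. The embryos were collected at E2.5 after natural mating, the zona pellucida was removed, and morphologically abnormal embryos were left out by the study, so the groups describe embryos that had reached this stage with a normal shape. The labels name no mother or litter, so embryos of a group may be littermates, and the p-values below measure the spread between these embryos. The labels hold 1 more control embryo, which was not analysed here.

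CCT encloses newly made proteins in a chamber formed by stacked rings and closes it by ATP hydrolysis. Actin and tubulin are its best known clients, and the WD40-repeat proteins Cdc20 and G protein beta subunits also depend on it. Each ring holds one copy of every subunit, so the complex needs all 8 gene products. Prefoldin hands unfolded actin and tubulin to CCT, phosducin-like proteins act with it on G protein beta subunits and tubulin, and the tubulin cofactors take tubulin over afterwards. Actin filaments and the spindle are in constant use in a cleaving embryo, which divides and then compacts at this stage.

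Values are CPM, the reads of a gene scaled to a common library size after TMM normalisation of the embryos. Total counts per embryo ranged from 12985149 to 30053248 in Ehmt2Cntr and from 8231646 to 30602434 in Ehmt2Mat, and mitochondrial genes took 6.47% to 20.4% and 8.03% to 21.7% of them. The number of genes above 0 was 12068 to 16142 in Ehmt2Cntr (median 12848) and 12754 to 16412 in Ehmt2Mat (median 14487.5), and its part in the results was not tested. The subunits were measured deeply, with at least 4790 reads for every subunit in every embryo. In Ehmt2 itself the mean was 141 ± 59.7 CPM (SD, n = 9) in Ehmt2Cntr and 102 ± 32.7 CPM (SD, n = 10) in Ehmt2Mat, and the difference did not pass the test (log2 fold change -0.47, edgeR adjusted p = 0.233). Because counts cover the whole gene and not only the deleted part, this does not check the maternal deletion. The summed level of 11 preimplantation embryo markers was 2028 to 3494 CPM in Ehmt2Cntr and 3144 to 4192 CPM in Ehmt2Mat. Dppa3, at 1923.5 and 2407.8 CPM on average, held most of it. Of the 9 that were tested, 5 had a positive log2 fold change, and 2 of the 9, Tead4 and Tfap2c, were called higher in Ehmt2Mat. Sox2 (1.86 and 0.025 CPM on average) and Cdx2 (5.96 and 0.16 CPM) did not pass the filter. Among 12 granulosa and cumulus markers Foxl2, Amh, Fshr, Has2 and Ptx3 were at 0 in all embryos, and without Nr5a2, which embryos also express, the sum was 0 to 7.32 CPM in Ehmt2Cntr and 0 to 83.7 CPM in Ehmt2Mat. The 5 blood markers summed to at most 8.37 and 9.33 CPM. The 6 oviduct and uterine epithelium markers summed to 6.24 to 427 CPM and 30.2 to 2918 CPM, and 2 genes held nearly all of it. Ovgp1, a secreted oviduct glycoprotein that coats cleavage embryos, had a median of 2.45 CPM in Ehmt2Cntr and 103 CPM in Ehmt2Mat (log2 fold change 3.41, edgeR adjusted p = 0.0926), and Epcam, which embryos also express, one of 38.6 and 33.0 CPM. Without Ovgp1 and Epcam that sum was at most 17.1 and 53.7 CPM. The part of these markers in the results below was not tested.

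The subunit genes lie on 8 different chromosomes (GRCm38). Tcp1 (ENSMUSG00000068039), which encodes CCT alpha, is at chr17:12915701-12925067 on the plus strand. Cct2 (ENSMUSG00000034024), for CCT beta, is at chr10:117050998-117063814 on the minus strand. Cct3 (ENSMUSG00000001416), for CCT gamma, is at chr3:88297116-88321767 on the plus strand. Cct4 (ENSMUSG00000007739), for CCT delta, is at chr11:22990519-23003780 on the plus strand. Cct5 (ENSMUSG00000022234), for CCT epsilon, is at chr15:31590800-31601847 on the minus strand. Cct6a (ENSMUSG00000029447), for CCT zeta, is at chr5:129786998-129846371 on the plus strand. Cct7 (ENSMUSG00000030007), for CCT eta, is at chr6:85451514-85468475 on the plus strand. Cct8 (ENSMUSG00000025613), for CCT theta, is at chr16:87483326-87495873 on the minus strand. A common feature of these loci is a gene that starts close by on the other strand: 6 of 8 had an opposite-strand start within 1000 bases of their own (Mrpl18 beside Tcp1, Tsacc beside Cct3, Fam173b beside Cct5, Psph beside Cct6a, Pradc1 beside Cct7 and B130034C11Rik beside Cct8), against 24.2% of the 11754 genes tested.

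Because the 8 genes varied together between embryos, the bases before their starts are shown for the genes where a stretch free of annotated exons was available. Promoter windows of 300 bases, 250 before and 50 after a start, were taken from RefSeq on GRCm38.p6, and 7 of the 8 genes matched. Cct4 had no entry. The letters GGGCGG, the core of an Sp1-type GC box, were found on one strand or the other in at least one window of 7 of 7 matched genes, against 38.2% of 27025 genes in the table. CCAAT, the box named for its letters, was found in 4 of 7 (Tcp1, Cct3, Cct6a and Cct7), against 41.1% of genes. The heat shock element core GAANNTTC was found in 1 of 7, in the second window of Cct2, against 9.04% of genes. None of the 7 held TATAAA, TGACGTCA or CACGTG, which 15.7%, 2.03% and 8.09% of genes held. A match is a description of letters in the window. The 27025 genes were not limited to those expressed in these embryos, and no share among expressed genes was taken. Cct2 and Cct5 each had more than 1 window. Shown 5′ to 3′ on the strand of the gene, with every GGGCGG or CCAAT in capitals (as CCGCCC or ATTGG where it lies on the other strand), are chr3:88297000-88297115 before Cct3, the 1 subunit called between the maternal genotypes, chr6:85451284-85451504 before Cct7 and chr16:87495874-87495998 before Cct8, the pair that varied most alike, and chr10:117063853-117064102 before Cct2, which has no close neighbour.
Cct3: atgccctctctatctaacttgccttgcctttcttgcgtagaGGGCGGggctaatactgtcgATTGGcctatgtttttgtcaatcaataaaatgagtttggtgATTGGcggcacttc
Cct7: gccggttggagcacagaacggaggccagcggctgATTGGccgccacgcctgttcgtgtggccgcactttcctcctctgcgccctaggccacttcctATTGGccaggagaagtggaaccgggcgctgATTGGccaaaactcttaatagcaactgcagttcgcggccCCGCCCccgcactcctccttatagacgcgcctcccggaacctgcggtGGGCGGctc
Cct8: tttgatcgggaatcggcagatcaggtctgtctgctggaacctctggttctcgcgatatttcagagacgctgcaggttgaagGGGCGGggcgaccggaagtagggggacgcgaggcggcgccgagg
Cct2: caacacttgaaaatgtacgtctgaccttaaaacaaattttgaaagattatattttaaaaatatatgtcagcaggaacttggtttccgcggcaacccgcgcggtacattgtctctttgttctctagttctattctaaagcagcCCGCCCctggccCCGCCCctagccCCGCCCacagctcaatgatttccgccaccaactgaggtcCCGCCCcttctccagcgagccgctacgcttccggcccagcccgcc
Cct3 and Cct7 held several CCAAT boxes in these stretches, with 2 and 3 matches, all on the strand opposite to the gene. The Cct2 stretch held 4 GGGCGG boxes and the Cct8 stretch 1.

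The 8 transcripts were at close mean levels and less close within single embryos. Mean CPM over all 19 embryos ran from 671 to 986, a ratio of 1.47, and 98.7% of the 11754 genes tested were no more abundant than the least abundant subunit. In Ehmt2Mat embryo 9, Cct7 held 17.6% of the summed CPM of the 8 subunits and Cct6a 5.94%, and in Ehmt2Mat embryo 3, Cct3 held 19.2% and Cct5 7.04%. Per kilobase of exon (RPKM) the order was Cct2 at 349 ± 79.1 (SD, n = 19), Cct6a at 270 ± 65.5, Cct5 at 252 ± 76.1, Cct4 at 235 ± 53.9, Cct8 at 217 ± 46.9, Tcp1 at 174 ± 31.2, Cct3 at 129 ± 47.6 and Cct7 at 127 ± 40.7. Several neighbours in this order were not separated. Cct2 was above Cct6a in 17 of 19 embryos, Cct8 above Tcp1 in 18 and Tcp1 above Cct3 in 18, whereas Cct6a was above Cct5 in 11, Cct5 above Cct4 in 10, Cct4 above Cct8 in 13 and Cct3 above Cct7 in 9. The annotated exon length ranged from 1962 to 6778 bases, and the cDNA amplification favours 3′ ends, so the order depends on the division by length: by CPM alone 0 of the 8 kept their rank.

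Between maternal genotypes 1 of the 8 subunits changed. Cct3 rose in Ehmt2Mat embryos to 1.62-fold (95% interval 1.24 to 2.12), the other 7 did not pass the test, and no subunit was called lower. The share of all genes called in this comparison was 9.35% (1099 of 11754), with 4.37% called higher and 4.98% lower, so 1 of 8 was close to the background. DESeq2 also called Cct3 and no other subunit, against 15.1% of all genes (1775). Of the 145 other genes at least as abundant as the lowest subunit, 45 were called, which is 31%. The median log2 fold change of the subunits was 0.20 against -0.04 for all genes tested, with 6 subunits higher on average and 2 lower.

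**Figure D1:**
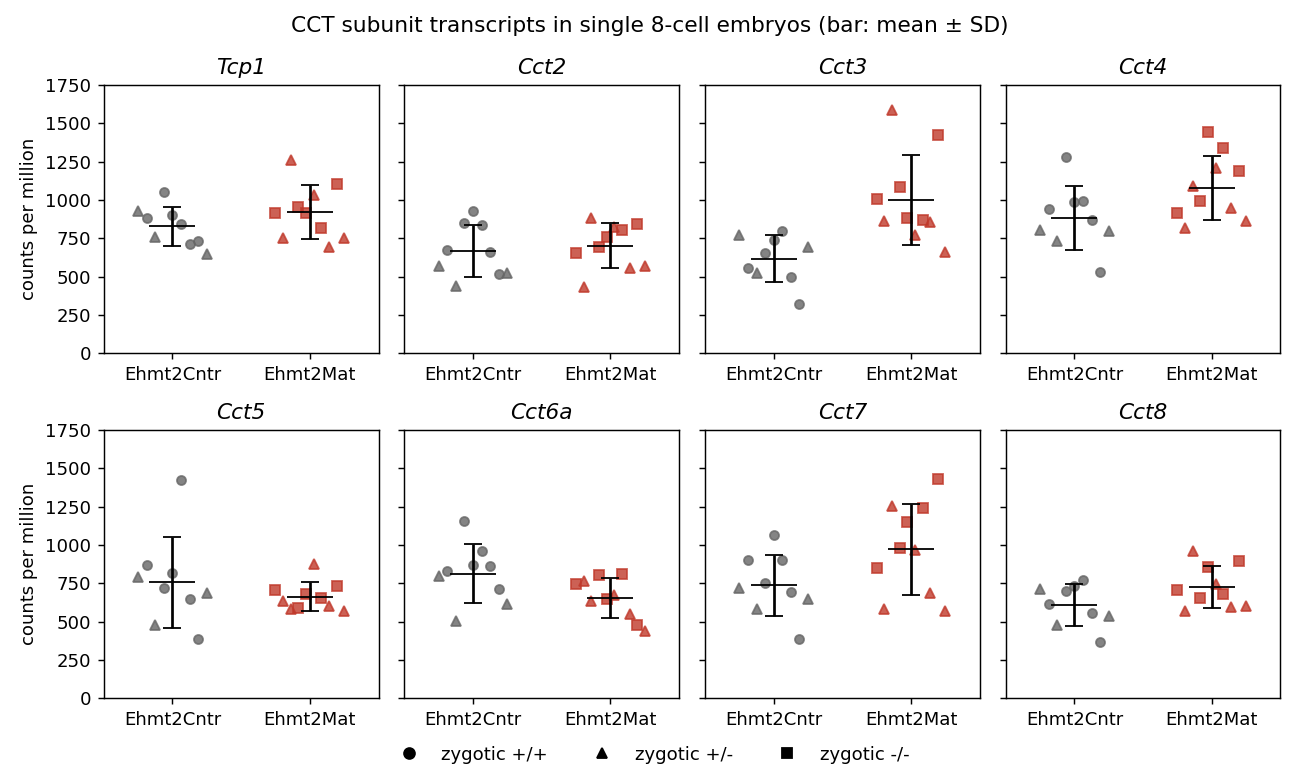
CPM of each CCT subunit (y axis) in single Ehmt2Cntr (n = 9, grey) and Ehmt2Mat (n = 10, red) embryos, with the zygotic genotype as marker shape and the bar at mean ± SD. For Cct3, 8 of the 10 Ehmt2Mat embryos lie above every Ehmt2Cntr embryo, whereas the groups overlap widely for Tcp1, Cct2, Cct4, Cct5 and Cct8.

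Cct3, the gamma subunit, ranged in Ehmt2Cntr embryos from 324 to 796 CPM with a median of 653, and in Ehmt2Mat embryos from 661 to 1586 CPM with a median of 875. All 10 Ehmt2Mat embryos were above the Ehmt2Cntr median, 8 were above every Ehmt2Cntr embryo and 5 Ehmt2Cntr embryos were below every Ehmt2Mat embryo, so the groups overlapped only at their edges. The means were 617 ± 154 CPM (SD, n = 9) and 1000.5 ± 292 CPM (SD, n = 10), with a log2 fold change of 0.70 ± 0.19 (SE) and an edgeR adjusted p of 0.0195. Ehmt2Mat embryos 3 (1586 CPM) and 9 (1425 CPM) were the highest, and they were zygotically +/- and -/-. Embryo 3 also had the highest Ovgp1 level (2798.5 CPM), and Cct3 was called without it (log2 fold change 0.60, edgeR adjusted p = 0.0383). Cct3 was called in all 19 fits that left out one embryo, with adjusted p from 0.0093 to 0.04. The call was lost when the number of zygotic Ehmt2 copies was added to the model, where the log2 fold change was 0.52 and the edgeR adjusted p 0.668. In that model 3 genes in all were called, and no +/+ embryo is in the Ehmt2Mat group and no -/- embryo in Ehmt2Cntr, so maternal and zygotic genotype are only in part separable.

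Cct7, Cct4 and Cct8 were higher on average in Ehmt2Mat with an interval that reached just below 0. Cct7, the eta subunit, ranged from 388 to 1063 CPM in Ehmt2Cntr (median 721) and from 569 to 1429 CPM in Ehmt2Mat (median 974). In 4 of the Ehmt2Mat embryos the level exceeded every Ehmt2Cntr embryo, 3 were below the Ehmt2Cntr median, and the log2 fold change of 0.39 (95% interval -0.02 to 0.80) did not pass the test (edgeR adjusted p = 0.235). Cct4, the delta subunit, ranged from 533 to 1281 CPM (median 871) and from 817 to 1443 CPM (median 1043), with a log2 fold change of 0.29 (-0.04 to 0.62, edgeR adjusted p = 0.277). Here 8 of 10 Ehmt2Mat embryos were above the Ehmt2Cntr median and 2 above every Ehmt2Cntr embryo. Cct8, the theta subunit, ranged from 367 to 772 CPM (median 617) and from 572 to 961 CPM (median 696), with a log2 fold change of 0.26 (-0.07 to 0.58, edgeR adjusted p = 0.347). Its 3 highest Ehmt2Mat embryos stood above every Ehmt2Cntr embryo and the rest lay within the Ehmt2Cntr range.

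Cct6a and Cct5 went the other way on average, also without passing the test. Cct6a, the zeta subunit, ranged from 503 to 1159 CPM in Ehmt2Cntr (median 828) and from 441 to 811 CPM in Ehmt2Mat (median 661). All 10 Ehmt2Mat embryos lay below the Ehmt2Cntr median and 5 Ehmt2Cntr embryos lay above every Ehmt2Mat embryo, yet the lowest Ehmt2Cntr embryo was among the lowest of all. Its log2 fold change was -0.31 (95% interval -0.65 to 0.03, edgeR adjusted p = 0.256). Cct5, the epsilon subunit, ranged from 385 to 1427 CPM (median 722) and from 573 to 875 CPM (median 646), and the highest and the lowest embryo were both Ehmt2Cntr. Its log2 fold change was -0.19 (-0.57 to 0.19, edgeR adjusted p = 0.592), and 1 Ehmt2Cntr embryo, number 7, widened the control spread to 39.1% of the mean against 13.9% in Ehmt2Mat. Without that embryo the log2 fold change was -0.03.

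Tcp1 and Cct2 differed least. Tcp1, the alpha subunit after which the complex was first named, ranged from 647 to 1050.1 CPM in Ehmt2Cntr (median 845) and from 696 to 1259 CPM in Ehmt2Mat (median 913), with a log2 fold change of 0.15 (-0.14 to 0.44, edgeR adjusted p = 0.586). Cct2, the beta subunit, ranged from 437 to 930 CPM (median 663) and from 435 to 881 CPM (median 724), with a log2 fold change of 0.07 (-0.27 to 0.42, edgeR adjusted p = 0.857). The groups covered nearly the same range in Cct2. For Tcp1, 2 Ehmt2Mat embryos were above every Ehmt2Cntr embryo. The upper ends of these intervals correspond to 1.36-fold for Tcp1 and 1.34-fold for Cct2, and a missing call does not show that the levels were equal.

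**Figure D2:**
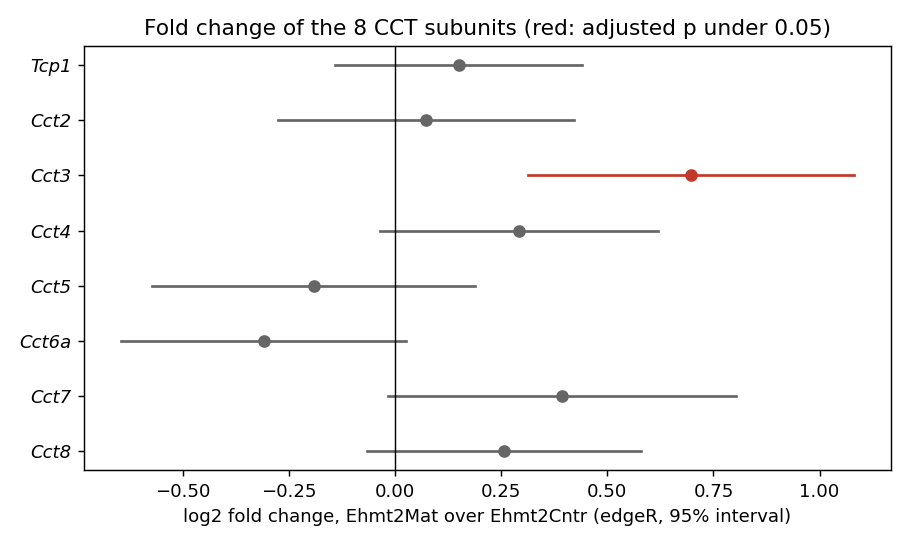
log2 fold change of Ehmt2Mat over Ehmt2Cntr (x axis) for the 8 subunits with 95% intervals from the edgeR fit. The interval of Cct3 lies wholly above 0 (0.31 to 1.08) and those of the other 7 include 0.

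The 8 transcripts were also read as 1 pool, since the assembled complex holds equal numbers of the subunits. The summed CPM was 5914 ± 1235 (SD, n = 9) in Ehmt2Cntr and 6719 ± 1109 (SD, n = 10) in Ehmt2Mat, a ratio of 1.14. It ran from 3963 in Ehmt2Cntr embryo 9 to 7525 in embryo 7, and from 5027 in Ehmt2Mat embryo 10 to 8246 in embryo 3, and 2 Ehmt2Mat embryos were above every Ehmt2Cntr embryo. Within the pool the Cct3 share was 8.17% to 13.4% in Ehmt2Cntr (median 10.5%) and 10.9% to 19.2% in Ehmt2Mat (median 15.5%), with all 10 Ehmt2Mat embryos above the Ehmt2Cntr median and 6 above every Ehmt2Cntr embryo. The Cct6a share was 11.2% to 18.1% (median 13.1%) and 5.94% to 14.1% (median 9.74%), with 6 Ehmt2Mat embryos below every Ehmt2Cntr embryo. The Cct5 share was 9.71% to 18.96% (median 11.8%) and 7.04% to 12.3% (median 10.1%), with 5 below. The median share of Cct7 was 12.6% and 14.1%, of Cct4 14.9% and 16.03%, of Tcp1 14.1% and 13.9%, of Cct2 11.1% and 10.4% and of Cct8 10.3% and 10.9%. These shares are tied to each other because they add up to the whole, Cct3 enters the sum with its own rise, and they are given as a description with no test.

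**Figure D3:**
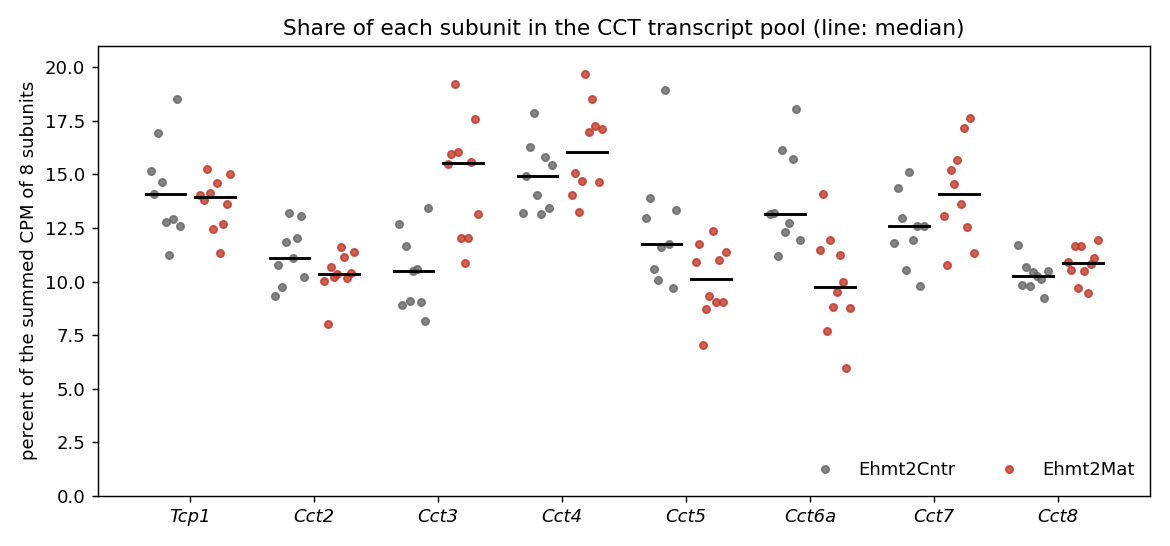
Share of each subunit in the summed CPM of the 8 subunits (y axis, percent) in Ehmt2Cntr (grey) and Ehmt2Mat (red) embryos, with the line at the median. The Cct3 median stands at 10.5% and 15.5%, the Cct6a median at 13.1% and 9.74%, and the Cct8 shares stay within 9.25% to 11.9% in all 19 embryos.

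From embryo to embryo the subunits moved together. After the group mean of log2 CPM was subtracted, all 28 subunit pairs correlated positively over the 19 embryos, with Pearson r from 0.18 (Cct3 with Cct6a) to 0.86 (Cct7 with Cct8) and a median of 0.59. The median r was 0.13 over 10440 pairs of the 145 other genes at least as abundant, and 0.003 over all pairs of genes tested. Cct8 was nearest to the rest, with a mean r of 0.72 with the other 7 subunits, and Cct6a farthest, with 0.35. These correlations share the libraries and their scaling and are descriptions. The mean of the subunits had r of -0.18 with log2 total count, -0.06 with the mitochondrial share and -0.25 with the number of genes detected. The extremes recurred in a few embryos: Ehmt2Cntr embryo 9 was the lowest control in 5 of the 8 subunits, Ehmt2Mat embryo 3 was the highest of its group in 4, and Ehmt2Mat embryo 10 was the lowest of its group in 4. The subunits also varied less between embryos than most genes, with a median coefficient of variation of 24.3% in Ehmt2Cntr and 19.8% in Ehmt2Mat. The medians were 29.2% and 26.8% for the 145 other genes at least as abundant as the lowest subunit. For all genes tested they were 58.6% and 50.9%.

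**Figure D4:**
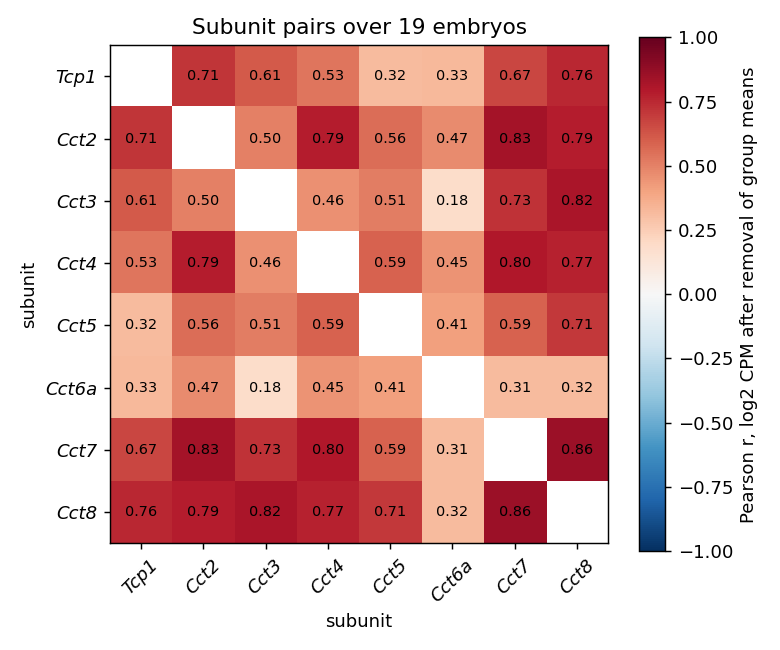
Pearson r between CCT subunits over 19 embryos, computed on log2 CPM after removal of the group means (colour scale -1 to 1, diagonal left blank). All 28 pairs are positive, and the values in the Cct6a row run from 0.18 to 0.47.

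The 5 other genes most like the mean of the subunits, by the same group-centred Pearson r over 19 embryos, were Eif3d (r = 0.91), Eif4a3 (0.87), Eef1g (0.87), Gm17638 (0.86) and Sec13 (0.86). Eif3d encodes a subunit of translation initiation factor eIF3, Eif4a3 a helicase of the exon junction complex, Eef1g a subunit of the elongation factor eEF1 and Sec13 a coat protein of COPII vesicles and of the nuclear pore. Only Gm17638 of these was called between the groups, with 67.6 ± 42.4 CPM (SD, n = 9) in Ehmt2Cntr and 143 ± 47.3 CPM (SD, n = 10) in Ehmt2Mat (log2 fold change 1.08, edgeR adjusted p = 0.0342). It lies at chr15:77961674-77967126 on the plus strand, inside the span of Eif3d at chr15:77958998-77970824 on the minus strand, and reads were counted without regard to strand, so reads of the 2 genes cannot be told apart where they overlap.

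Reads that touched exons of more than 1 gene were counted for each of them, which bears on 4 subunits. Cct8 shares 192 exon bases (6.22% of its exon length) with the convergent Usp16, a deubiquitinase gene, at its 3′ end, where the amplification favours reads. Usp16 itself was at 697 ± 180.03 CPM (SD, n = 9) and 786 ± 139 CPM (SD, n = 10), about as high as Cct8, so the part of the Cct8 count that is shared is not known from these files. Group-centred r between the pair was -0.42, below that of Cct8 with any subunit. Tcp1 shares 571 bases (11.4%) at its 3′ end with Acat3, an acetyl-CoA acetyltransferase gene on the other strand, which was at 184 ± 40.5 and 157 ± 29.9 CPM. Here the group-centred r was 0.71, as high as that of Tcp1 with Cct2. Tcp1 also shares 141 bases with Mrpl18, a mitochondrial ribosomal protein gene (235 ± 43.6 and 186 ± 40.2 CPM), and 138 bases with the small RNA gene Gm26130, at 0.26 and 0.51 CPM on average. Cct6a shares 452 bases (16.7%) with Psph, the last enzyme of serine synthesis, at its 5′ end, and 102 bases with Snora15, which had at most 3 reads in any embryo. Psph was at 58.5 ± 16.9 and 35.2 ± 14.3 CPM, with all 10 Ehmt2Mat embryos below the Ehmt2Cntr median (log2 fold change -0.73, edgeR adjusted p = 0.0882). Cct7 shares 214 bases (3.16%) with Pradc1, at 42.03 ± 14.5 and 35.4 ± 12.2 CPM.

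None of the genes beside the subunits was called by edgeR. Tsacc, which starts 117 bases from Cct3 on the other strand and shares no exon base with it, was at 1.19 ± 1.29 CPM (SD, n = 9) and 1.31 ± 1.30 CPM (SD, n = 10). Fam173b, 5 bases from the start of Cct5, was at 17.05 ± 11.4 and 11.1 ± 2.65 CPM, and B130034C11Rik beside Cct8 was at 0 in all embryos. Of the 10 neighbours, 7 passed the filter and 0 were called by edgeR. At an unadjusted p under 0.05 there were 2 (Mrpl18 and Psph), and DESeq2 called 1 (Psph). Of the 50-base windows of the transcripts (GENCODE M21, GRCm38), the share that recurs in another gene was 15.4% for Cct6a, 13.9% for Tcp1, 4.28% for Cct8, 2.89% for Cct7, 0.793% for Cct3, 0.364% for Cct4 and 0% for Cct2 and Cct5. The overlapping neighbours are part of these shares, and for Cct3 the processed pseudogene Cct3-ps1, which is not among the counted genes, holds the most of its windows.

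The comparison was repeated between embryos whose labels differ in either the maternal or the zygotic genotype, but not in both. Mothers and litters are not named, so these groups may differ in them as well. With the zygotic genotype held at +/- (5 Ehmt2Mat against 3 Ehmt2Cntr embryos), 0 of the 8 subunits were called by edgeR, and 1 of 13401 genes was (0.00746%), while 906 genes had an unadjusted p under 0.05 and DESeq2 called 79 genes, no subunit among them. Cct3 was at 948 ± 366 CPM (SD, n = 5) against 663 ± 127 CPM (SD, n = 3), which is a log2 fold change of 0.50 (95% interval -0.21 to 1.20, edgeR adjusted p = 0.903). The estimate is below the 0.70 of the whole comparison, and the interval includes both 0 and 0.70. In Cct4 all 5 Ehmt2Mat embryos (817 to 1206 CPM) were above all 3 Ehmt2Cntr embryos (732 to 806 CPM). Its log2 fold change of 0.32 (-0.23 to 0.87) did not pass the test (edgeR adjusted p = 0.944). The share of all genes separated in this way was not taken, so the separation is a description. Among Ehmt2Mat embryos, loss of the remaining zygotic copy (5 Ehmt2M/Z against 5 Ehmt2M/+) gave 0 called subunits and 0 of 12195 genes (0%) by edgeR, with 270 genes at an unadjusted p under 0.05, and 3 genes by DESeq2. All 8 subunits were higher on average in Ehmt2M/Z. They varied together between embryos, so this is not 8 separate observations, and the share of all genes higher in Ehmt2M/Z was not taken. The largest change was in Cct7, at 1130.3 ± 225 CPM (SD, n = 5) against 812 ± 293 CPM (SD, n = 5). Its log2 fold change was 0.48 (-0.06 to 1.02, edgeR adjusted p = 0.9997). Among Ehmt2Cntr embryos (3 +/- against 6 +/+) 0 subunits and 0 of 12646 genes (0%) were called by edgeR, with 572 genes at an unadjusted p under 0.05, and 3 genes were called by DESeq2. Cct2 was at 510.3 ± 67.1 CPM (SD, n = 3) in +/- and 745 ± 152 CPM (SD, n = 6) in +/+ embryos, a log2 fold change of -0.53 (-1.08 to 0.02), and Cct6a at 639 ± 151 and 899 ± 150 CPM (-0.48, -1.02 to 0.06). Cct3 in this comparison was at 0.17 (-0.45 to 0.80). These comparisons share embryos with the whole one and with each other.

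Prefoldin, the complex that passes unfolded actin and tubulin to CCT, rose in 2 of its 6 subunits by edgeR, where 4.37% of all genes were called higher, and DESeq2 also called Pfdn5. Pfdn6, a beta-type subunit, ranged from 67.4 to 148 CPM in Ehmt2Cntr (median 108) and from 105 to 257 CPM in Ehmt2Mat (median 183), with 8 of 10 Ehmt2Mat embryos above every Ehmt2Cntr embryo (log2 fold change 0.74, edgeR adjusted p = 0.0177). Pfdn2 was at 71.9 ± 22.7 CPM (SD, n = 9) and 119 ± 42.5 CPM (SD, n = 10), which is a log2 fold change of 0.73 (edgeR adjusted p = 0.046) with 5 of 10 above every Ehmt2Cntr embryo. Pfdn5 had a log2 fold change of 0.67 (edgeR adjusted p = 0.0869) and Pfdn4 of 0.49, and Vbp1 and Pfdn1 were at -0.12 and -0.19. The related prefoldin-like complex around URI moved in both directions, 1 of 5 higher and 1 lower. Wdr92 ranged from 5.54 to 34.7 CPM in Ehmt2Cntr and from 37.0 to 57.02 CPM in Ehmt2Mat, so that all 10 Ehmt2Mat embryos were above every Ehmt2Cntr embryo (log2 fold change 0.97, edgeR adjusted p = 0.0237). Uri1, the scaffold of the complex, was at 49.4 ± 20.5 and 21.9 ± 11.7 CPM, a log2 fold change of -1.17 (edgeR adjusted p = 0.0248).

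Of the phosducin-like co-chaperones, 0 of 3 tested were called by edgeR, with Pdcl, which acts on G protein beta subunits, at 80.1 ± 32.5 CPM (SD, n = 9) and 133 ± 40.8 CPM (SD, n = 10) and an edgeR adjusted p of 0.0509. Of the 6 tubulin cofactors tested 0 were called, and the same held for 4 CCT relatives (Cct6b, Cct8l1, Mkks and Bbs10). At an unadjusted p under 0.05 the 3 lists held 1, 0 and 0 genes, and DESeq2 called the same 1 gene, Pdcl. Cct6b, the testis form of the zeta subunit, was low, at 10.2 ± 6.03 and 18.1 ± 7.25 CPM against 655 to 813 CPM for Cct6a.

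Of the 12 other client genes tested, 1 was called higher and 1 lower by edgeR, which is 16.7% against 9.35% of all genes. Cdc20, the activator of the anaphase-promoting complex, ranged from 241 to 751 CPM in Ehmt2Cntr (median 478) and from 692 to 1738 CPM in Ehmt2Mat (median 1099), with 8 of 10 Ehmt2Mat embryos above every Ehmt2Cntr embryo (log2 fold change 1.21, edgeR adjusted p = 0.000922). Gnb1, a G protein beta subunit, ranged from 101 to 338 CPM (median 139.6) and from 25.4 to 98.9 CPM (median 38.5), and the groups did not overlap (log2 fold change -1.83, edgeR adjusted p = 0.000326). The other 10 clients of this list were not called by edgeR, 4 of them (Hdac3, Vhl, Wrap53 and Mlst8) had an unadjusted p under 0.05, and DESeq2 also called Hdac3 (log2 fold change -1.40, edgeR adjusted p = 0.0563). Of 12 actin and tubulin genes, 1 was higher and 2 were lower. Tubb5 was at 234 ± 108 CPM (SD, n = 9) and 517 ± 290.2 CPM (SD, n = 10) (log2 fold change 1.15, edgeR adjusted p = 0.0254), and 5 of 10 Ehmt2Mat embryos were above every Ehmt2Cntr embryo. Actb was at 196 ± 94.1 and 86.2 ± 33.2 CPM (-1.18, edgeR adjusted p = 0.0075) and Tuba1b at 29.3 ± 13.4 and 12.4 ± 6.58 CPM (-1.24, edgeR adjusted p = 0.0253). Actin and tubulin genes have near-identical paralogs and many processed copies, so their counts are uncertain.

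The Hsp70 and Hsp90 system, which feeds CCT with some of its clients, held 4 higher and 2 lower calls among 24 genes tested. Stip1, the Hop protein that bridges Hsp70 and Hsp90, was at 1114 ± 277 CPM (SD, n = 9) and 2206 ± 822 CPM (SD, n = 10), with 8 of 10 Ehmt2Mat embryos above every Ehmt2Cntr embryo (log2 fold change 0.99, edgeR adjusted p = 0.00387). Hsp90ab1 was at 3323 ± 1266 and 6415 ± 2524 CPM (0.95, edgeR adjusted p = 0.00996). The other pair of calls upward was Dnajc7 (1.11) and Hspa8 (0.84), and the J-domain co-chaperones Dnaja1 and Dnaja2 fell, by 1.14 and 0.65 on the log2 scale. Of 7 mitochondrial chaperones, Hspd1 and Hspe1 of the chaperonin related to CCT included, 0 were called by edgeR, 3 had an unadjusted p under 0.05 and DESeq2 called 0. Of 11 endoplasmic reticulum chaperones 2 rose by edgeR, Hspa5 (BiP, 1.48) and Hsp90b1 (1.33). DESeq2 also called Pdia3 (0.74, edgeR adjusted p = 0.0555). Over all these lists 17 of 90 genes tested were called, 11 higher and 6 lower, which is 18.9% against 9.35% of all genes. The called share was higher among well detected genes. It was 19.2% in a fit of only the genes with at least 10 counts in every embryo. Of the 145 other genes at least as abundant as the lowest subunit, 31% were called. The lists were composed by function with earlier results of these data known, and the counts are a description.

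**Figure D5:**
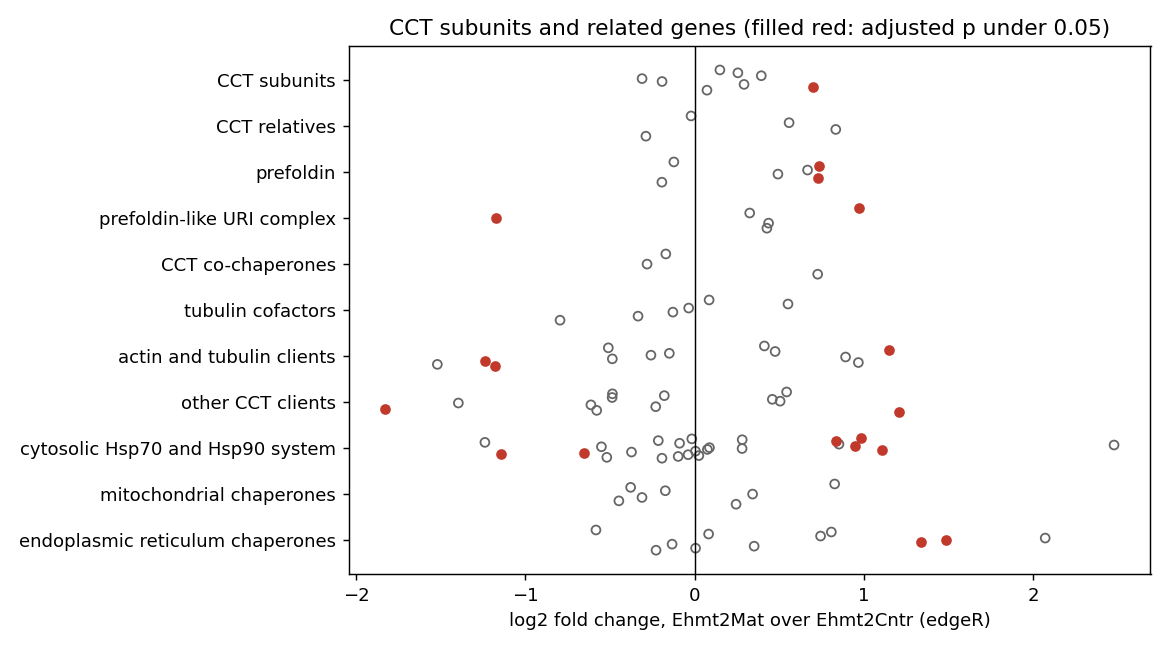
log2 fold change of Ehmt2Mat over Ehmt2Cntr (x axis) for every tested gene of the CCT subunits and of 10 related lists, with genes past the edgeR threshold filled in red. Cct3 is the 1 filled point of the 8 subunits, 2 of 6 prefoldin genes are filled on the right, and the client and Hsp70 and Hsp90 lists hold filled points on both sides.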

How the data were processed

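Single 8-cell embryos were measured by RNA sequencing of amplified cDNA, a protocol with a 3′ bias, as single-end reads of 50 bases. The authors deposited raw read counts per gene, one file per embryo, made with featureCounts 1.5.0 on Ensembl 82 exons (GRCm38). Per the file headers a read overlapping a gene by at least 10 bases was counted for every gene it touched. Strand was not used, and the counting was set to keep multi-mapping reads. Whether the alignments still held such reads is not known. The aligner is not named in the headers, and the labels list TopHat2. No value had been normalised before deposit.

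Gene identifiers were paired with GENCODE symbols (34599 of 34937). Genes were filtered with filterByExpr, scaled by TMM and tested with the edgeR 4.0.16 quasi-likelihood test (R 4.3.3), all Ehmt2Mat against all Ehmt2Cntr embryos with no covariate, with Benjamini-Hochberg adjustment over all genes tested and a threshold of 0.05. DESeq2 1.42.0 was an alternative, and the tests were tested on simulated data. RPKM is CPM per kilobase of annotated exon. For correlations log2 CPM was computed at prior count 2. The members and lists were chosen with earlier results of these data known. Genes named were the 8 subunits, Ehmt2, at most 4 called genes with the largest change in each list, genes sharing exon bases or a nearby opposite start with a subunit, and the 5 genes most like the subunit mean. Further list members were named after their values were seen. Of these Hspa8 and Dnaja2 were called. Pfdn1, Pfdn4, Pfdn5, Vbp1, Pdcl, Cct6b, Cct8l1, Mkks, Bbs10, Hspd1, Hspe1, Hspa1a, Pdia3, Hdac3, Vhl, Wrap53, Mlst8, Ovgp1, Epcam, Dppa3, Sox2 and Cdx2 were not called by edgeR. Promoter sequences came from RefSeq. Alternatives were other scalings and filters, DESeq2, added covariates and leaving out each embryo.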

Additional observations from a re-analysis of the deposited data

Results flagged for a closer look

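Among 116 sets of CPM values (the named genes past the filter except Dppa3, Hspa1a and Pdia3, in each group), 20 had an end value far from the rest. In these the gap to the nearest embryo was above Dixon's 95% critical share of the range. That limit flags about 1 in 20 sets of independent, normally distributed values. CPM values need not be so distributed, the genes share embryos, and every flagged value was the highest of its set. The number flagged therefore does not measure an excess over chance. For the subunits 2 of 16 sets were flagged, both in Cct5: Ehmt2Cntr embryo 7 at 1427 CPM (next 872) and Ehmt2Mat embryo 6 at 875 CPM (next 733). Ehmt2Cntr embryo 7 was also the highest control for Gnb1 (338 CPM), Pradc1 (77.6 CPM) and Hspe1 (43.5 CPM). Ehmt2Mat embryo 3 was the highest of its group for Hsp90ab1 (12542 CPM), Ovgp1 (2798.5 CPM), Hspa8 (998 CPM), Pradc1 (65.3 CPM), Tuba1b (27.9 CPM) and Tsacc (4.60 CPM). In Ehmt2Mat embryo 10 the flagged genes were Dnaja1 (563 CPM), Mkks (224 CPM) and Gnb1 (98.9 CPM). The others were Pdcl (241 CPM) in Ehmt2Mat embryo 5, Vbp1 (169.99 CPM) in Ehmt2Mat embryo 4, Dnajc7 (280.2 CPM) in Ehmt2Mat embryo 9, Ovgp1 (371 CPM) and Hsp90b1 (147 CPM) in Ehmt2Cntr embryo 10 and Uri1 (98.2 CPM) in Ehmt2Cntr embryo 9.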

How the results depend on the processing

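Cct3 was the 1 subunit called under 26 of 28 alternatives, and no subunit changed direction under any of them. Leaving out each embryo in turn gave 1 to 1 called subunits, 12 to 21 called partner genes and 884 to 1262 called genes. It gave 0 to 0 subunits in each narrower comparison, that of maternal genotypes at zygotic +/- and those of zygotic genotypes. DESeq2 called 1775 genes. With zygotic Ehmt2 copies in the model 0 subunits, 0 partner genes and 3 genes were called, with Cct3 at 0.52 (edgeR adjusted p = 0.668). The cause was not tested.

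In a fit that took the embryo number as replicate block, 0 subunits, 9 partner genes and 693 genes were called, with Cct3 at 0.66 (edgeR adjusted p = 0.105). The labels do not say that a number marks a shared litter or day, and same-numbered embryos did not deviate together (r from -0.16 to 0.09 over 9 pairs, 0 above 0.1). By CPM without division by length 0 of 8 subunits kept their rank of level. Every subunit had at least 4790 reads in each embryo, and the groups in the narrower comparisons hold 3 to 6 embryos each.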
